A study of Mus musculus with 12 samples.

Results

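Aminoacyl-tRNA synthetases are the enzymes that join each amino acid to its tRNA, the step that fixes the genetic code before the ribosome acts. Mammalian cells hold a cytosolic set and a mitochondrial set, both encoded in the nucleus, and the mitochondrial enzymes serve the small group of proteins that mitochondria make themselves. Several cytosolic enzymes sit together in a multi-synthetase complex, while many genes of the cytosolic set are known to be transcribed by ATF4, the factor that is made when amino acids run short or mTORC1 is active. Autophagy returns amino acids to the cytoplasm and removes mitochondria, so the charging enzymes stand at a point where both supplies meet.

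Synthetase transcripts were measured in 562 cells without Fip200, Atg5 or Atg7 and compared with control 562 cells, and cytosolic enzymes were set beside mitochondrial ones. Members were the rows of the deposited tables whose gene name holds the words tRNA synthetase joined by a hyphen to the amino acid, which gave 39 of 14851 genes. They comprise 21 cytosolic enzymes or subunits, 16 mitochondrial enzymes and 2 genes that only share a domain with them, Aarsd1 and Prorsd1, whose products edit mischarged tRNA. Kars and Gars, which make both the cytosolic and the mitochondrial form of their enzyme, are counted as cytosolic. Wars2, the mitochondrial tryptophan enzyme, is written without the hyphen in the tables and so fell outside the rule. It was listed at 2.56, 2.02 and 2.2 RPKM in control cells, 2.56, 3.69 and 3.65 without Fip200, 3.64, 3.65 and 4.11 without Atg5 and 4.61, 3.1 and 3.77 without Atg7.

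562 cells are an immortalized line of lymphatic endothelial cells from a vascular tumor of a C57BL/6 mouse in which tamoxifen-activated Scl-Cre had removed Tsc1, an inhibitor of mTORC1, so that every group, the control included, lacks Tsc1. The activity of mTORC1 was not measured in these libraries. The control libraries carry the genotype label wildtype although those cells also lack Tsc1, and by the study's methods they had received a guide RNA against EGFP. The KO cells were derived from 562 cells with lentiviral CRISPR guides and puromycin selection. The paper describes separate clones of Fip200 KO cells and lists different Fip200 guides. The sources used here do not say which guide or clone each Fip200 KO library came from. Fip200 starts the autophagosome, while Atg5 and Atg7 act in the conjugation of LC3 to its membrane. RNA of 3 libraries per group was sequenced, 12 libraries in all, and the same 3 control libraries serve all 3 comparisons. The study calls the RNA samples of the KO cells independent and states that its experiments had biological triplicates, but the sources used here do not say whether each library came from a culture of its own. The p-values therefore measure the spread between these libraries, which may be technical.

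Each value is an RPKM, that is reads scaled by gene length and library total, which can be compared between genes, while a comparison between libraries depends on that scaling and was repeated with another. The reads on the listed genes came to between 17266926 and 23629730 per library, and the member with fewest reads in any library was Cars2 with 54. Transcripts of the targeted genes remained detectable, and since a CRISPR cut need not lower the transcript, their levels are only a weak check of the labels. Rb1cc1, the gene of Fip200, stood at 5.18, 6.84 and 2.06 RPKM in Fip200 KO against 6.43, 8.27 and 7.73 in control libraries, and these ranges overlapped. Atg5 stood at 8.53, 15.5 and 12.6 RPKM in Atg5 KO against 14.2, 11.1 and 10.6 in control, which overlapped as well. Atg7 stood at 5.4, 2.64 and 8.34 RPKM in Atg7 KO, below the 18.4, 25 and 19.8 of control, but it was below control in all Atg5 KO libraries too (9.99, 11.9 and 9.94) and in Fip200 KO replicates 2 and 3 (12.4 and 8.23), so that a low value was not particular to the Atg7 KO label. Fip200 KO replicate 3 and Atg7 KO replicate 2 stood apart from their groups. The former had a Pearson r across genes of 0.881 and 0.908 with its own group and the latter 0.940 and 0.938 with its own, against 0.945 to 0.995 for the other pairs of replicates. Of those other pairs, control replicates 1 and 2 were the least alike (0.945) and Atg5 KO replicates 1 and 2 the most (0.995). Fip200 KO replicate 2 was closer to Atg7 KO replicate 3 (0.973) than to its own group (0.946 and 0.908). Control replicate 1 had 0.950 and 0.952 with Atg5 KO replicates 1 and 2, against 0.945 and 0.971 with control replicates 2 and 3. Library names carry prefixes that follow the groups in part, and since all Fip200 KO libraries share 1 prefix and all Atg7 KO libraries another, prefix and genotype cannot be fully told apart. Control replicate 1 has the Fip200 KO prefix, and control replicates 2 and 3 share theirs with Atg5 KO replicates 1 and 2. No control library has the Atg7 KO prefix, which outside Atg7 KO only Atg5 KO replicate 3 carries. Fits with the prefix thus set Atg7 KO against control through that 1 library. Endothelial identity was checked on markers. The summed RPKM of 4 lymphatic endothelial markers was 262 to 358 in control cells, 219 to 821 without Fip200, 388 to 497 without Atg5 and 379 to 488 without Atg7, and that of 6 general endothelial markers 610.3 to 1463, 1328 to 1415, 1668 to 1918 and 1187 to 1946 in the same order. Of 6 fibroblast and mural markers only Col1a1 stayed under 0.5 RPKM in every library, and the others reached it in at least 1 library. Their sums were 3.83 to 157, 3.20 to 37.0, 7.16 to 36.3 and 2.45 to 16.3. Of 6 leukocyte markers 3 are in the tables, with sums of 2.98 to 26.5, 0.282 to 3.32, 4.19 to 5.04 and 0.148 to 6.86. Ptprc and Adgre1 stayed under 0.5 RPKM throughout, so the higher sums come from the third of these genes. Of 5 epithelial markers 2 are in the tables, with sums of 6.19 to 10.6, 0.524 to 6.19, 1.84 to 5.72 and 0.392 to 6.28, and of these Krt8 stayed under 0.5 RPKM throughout. The part of these differences in the synthetase values was not tested.

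The start regions of the genes were read for letters bound by known factors, and matches were counted in the cytosolic and in the mitochondrial set. RefSeq gives windows of 250 bases before to 50 bases after the start of each gene on GRCm38.p6, and 29 of the 39 members matched by gene number, 14 of them cytosolic, 13 mitochondrial and 2 of the related genes. The motif TGATGNAA, the form of element that ATF4 binds with C/EBP factors, was found on either strand in 5 of 14 cytosolic genes and in 0 of 13 mitochondrial genes, and in 3.97% of all 32851 promoters. Its stricter form TGATGCAA, which is contained in it, was found in 4 of 14 cytosolic genes, 0 of 13 mitochondrial genes and 0.895% of all promoters. The 30 bases around the match are shown for 4 cytosolic genes, 5′ to 3′ on the strand of the gene, with the match in capitals and read as TTNCATCA where it lies on the other strand.
Gars: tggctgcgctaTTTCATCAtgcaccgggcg
Iars: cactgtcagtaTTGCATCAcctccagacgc
Tars: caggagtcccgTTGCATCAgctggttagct
Yars: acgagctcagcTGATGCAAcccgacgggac
These stretches lie at chr6:55037960-55037989 (plus strand) for Gars, chr13:49682126-49682155 (plus) for Iars, chr15:11399655-11399684 (minus) for Tars and chr4:129189895-129189924 (plus) for Yars. In Gars and Tars the shown match begins 30 and 15 bases before the start on which the RefSeq window is set, and in Iars and Yars 7 and 3 bases after it. For Yars that start lies downstream of the first annotated base of the gene. The 4 genes charge glycine, isoleucine, threonine and tyrosine.

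The motif CCGGAAG, the core bound by ETS factors, was found in 5 of 14 cytosolic genes, namely Farsa, Gars, Kars, Mars and Sars, in 4 of 13 mitochondrial genes and in Prorsd1, against 8.86% of all promoters. The mitochondrial matches are shown because these 4 genes are among those described below, again as 30 bases on the strand of the gene, where CTTCCGG is the same motif on the other strand.
Cars2: gagtgtagcctCTTCCGGgagtgggcggag
Mars2: tggcttccgcgCCGGAAGcggcggtaccgt
Rars2: agcagaggcgaCTTCCGGcgcggaggcggg
Sars2: acctccagcccCTTCCGGggttcctcctta
They lie at chr8:11550771-11550800 (minus strand), chr1:55237143-55237172 (plus), chr4:34614942-34614971 (plus) and chr7:28741803-28741832 (plus). Further letter runs were searched on both strands. CACGTG, the E-box, was in 4 cytosolic genes (Aars, Farsb, Iars and Tars), in 1 mitochondrial gene (Ears2) and in 7.15% of all promoters. CCAAT was in 7 cytosolic and 6 mitochondrial genes and in 37.4% of all promoters. GCATGCGC was in 0 cytosolic and 2 mitochondrial genes and in 2.71% of all promoters, and the longer NRF1 palindrome, which contains it, in 0 of both and in 0.971%. All motifs were chosen after the values were seen, and a match describes letters only.

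Cytosolic enzymes were far more abundant than mitochondrial ones. The median over members of the mean RPKM across 12 libraries was 55.5 for the cytosolic set and 6.33 for the mitochondrial set. Rars, which charges arginine, had the highest cytosolic mean at 175 RPKM, with 169, 166 and 139 RPKM in control cells, 173, 148 and 205 without Fip200, 178, 167 and 156 without Atg5 and 224, 199 and 173 without Atg7. Its control and Atg7 KO libraries did not overlap, while the other groups lay across the control range. Tarsl2, a paralog of the threonine enzyme, had the lowest cytosolic mean at 2.46 RPKM, with 2.13, 3.21 and 2.22 RPKM in control cells, 1.44, 0.855 and 5.59 without Fip200, 2.45, 2.4 and 0.898 without Atg5 and 1.56, 4.14 and 2.58 without Atg7. The highest Tarsl2 values came from Fip200 KO replicate 3 and Atg7 KO replicate 2, the libraries that stood apart. Among mitochondrial members Pars2, the proline enzyme, was lowest at a mean of 0.857 RPKM, with 0.921, 1.01 and 1.02 RPKM in control cells, 0.616, 0.579 and 0.651 without Fip200, 0.895, 0.803 and 1.05 without Atg5 and 1.13, 0.762 and 0.847 without Atg7. All 3 Fip200 KO values of Pars2 lay below all control values. Iars2, the isoleucine enzyme, was next to the top of the mitochondrial set at a mean of 22.8 RPKM.

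**Figure D1:**
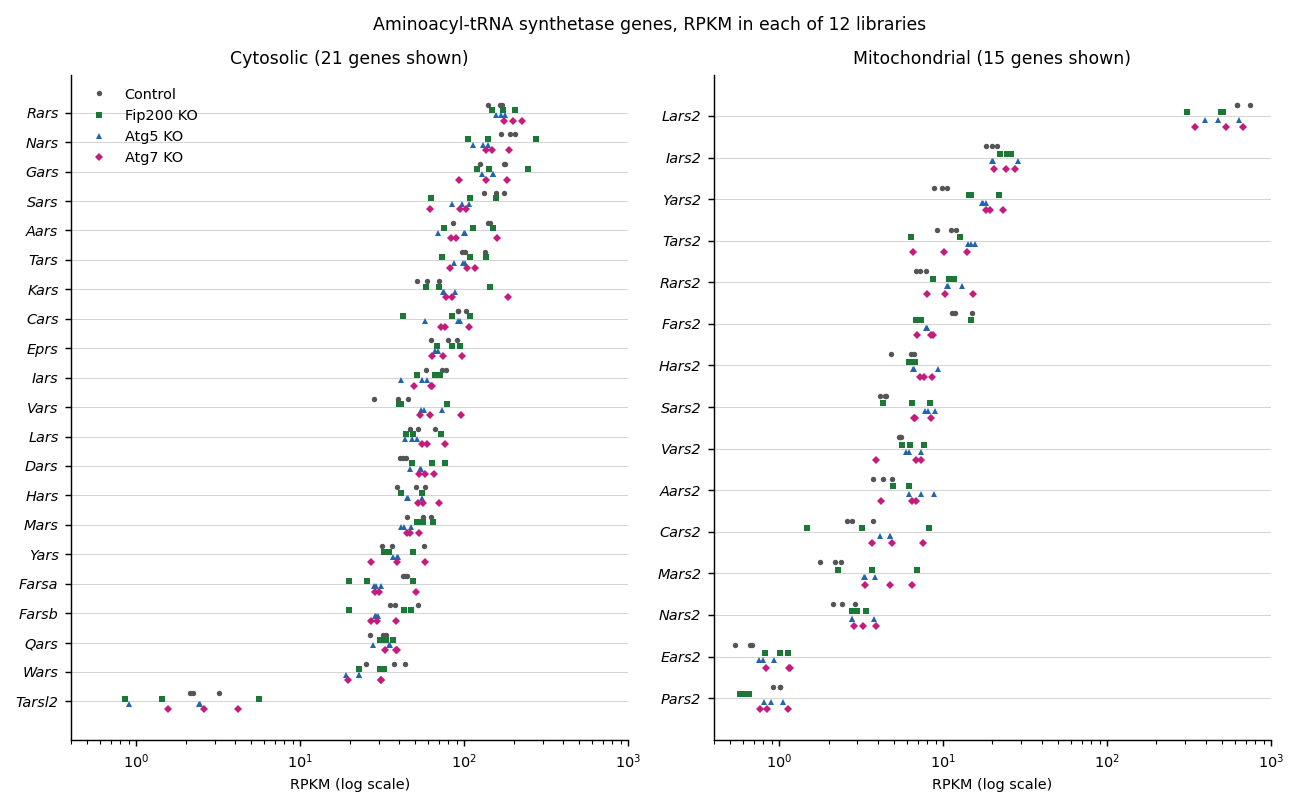
RPKM of 21 cytosolic and 15 of the 16 mitochondrial synthetase genes in each of the 12 libraries, on a log axis, with 1 point per library and 1 symbol per group, genes ordered by mean. The cytosolic set is centred near 55.5 RPKM and the mitochondrial set near 6.33, and Lars2 stands alone at 306 to 748 RPKM.

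Lars2, the mitochondrial leucine enzyme, departed from its set. It was listed at 748, 623 and 619.9 RPKM in control cells, 495, 306 and 508 without Fip200, 473, 636 and 395 without Atg5 and 341, 670.3 and 532 without Atg7, at a mean of 529 RPKM. Its level moved with that of Rn45s, the 45S pre-rRNA, which stood at 3009, 2416 and 2369 RPKM in control cells, 1827, 956 and 2235 without Fip200, 1866, 2439 and 1289 without Atg5 and 1255, 2495 and 1897 without Atg7. Lars2 was between 22.7% and 32.0% of Rn45s in every library, a 1.41-fold range, while Lars2 itself ranged 2.45-fold and Rn45s 3.15-fold. All 3 Fip200 KO values of Lars2 lay below control, with a log2 fold change of -0.64 ± 0.27 (SE; adjusted p = 0.301), which did not pass the test. The part of ribosomal RNA in the Lars2 values was not tested, and sums over the mitochondrial set are therefore given without Lars2 and also with it.

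**Figure D2:**
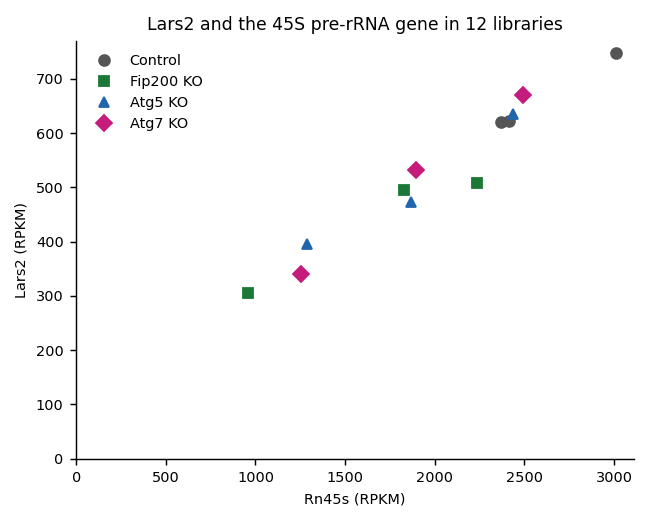
Lars2 RPKM against Rn45s RPKM in the 12 libraries, 1 point per library and 1 symbol per group, both axes from 0. The points keep close to 1 line, with Lars2 between 22.7% and 32.0% of Rn45s.

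Cytosolic and mitochondrial transcripts were then summed in each library. Without Lars2 the summed RPKM of the mitochondrial enzymes was 93.4, 92.5 and 90.6 in control cells, 117, 96.2 and 128 without Fip200, 114, 113 and 134 without Atg5 and 131, 111 and 117 without Atg7, so every KO library was above every control library. With Lars2 kept in, the group means turned the other way. They were 756 ± 74.5 in control cells, 550 ± 129 without Fip200, 622 ± 114 without Atg5 and 634 ± 155 without Atg7 (SD, n = 3 each). The summed RPKM of the cytosolic enzymes was 1650.3, 1816 and 1417 in control cells, 1947, 1404 and 1468 without Fip200, 1469, 1447 and 1289 without Atg5 and 1739, 1608 and 1459 without Atg7, and these ranges overlapped. The cytosolic sum was 17.6 ± 1.99 times the mitochondrial sum (Lars2 left out) in control cells, 14.2 ± 2.56 without Fip200, 11.8 ± 1.84 without Atg5 and 13.4 ± 0.999 without Atg7 (SD, n = 3 each). It ran from 15.6 to 19.6 in control libraries, and the Atg5 KO (9.65 to 12.9) and Atg7 KO libraries (12.5 to 14.5) all lay below that range, while Fip200 KO libraries (11.5 to 16.6) overlapped it. On the log2 scale, the median difference of the 16 mitochondrial genes from the control mean was 0.24 ± 0.10 without Fip200, 0.29 ± 0.20 without Atg5 and 0.31 ± 0.14 without Atg7 (SD, n = 3 each), where control libraries lay between -0.02 and 0.02. For the 21 cytosolic genes it was 0.03 ± 0.18, -0.20 ± 0.11 and 0.04 ± 0.09 in the same order, and the control libraries themselves ran from -0.22 to 0.19. The control libraries of the cytosolic set thus spread wider than the mean shift of any KO group. These medians are descriptions over genes and carry no test. Control libraries centre near 0 here because the differences are taken from their own mean.

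**Figure D3:**
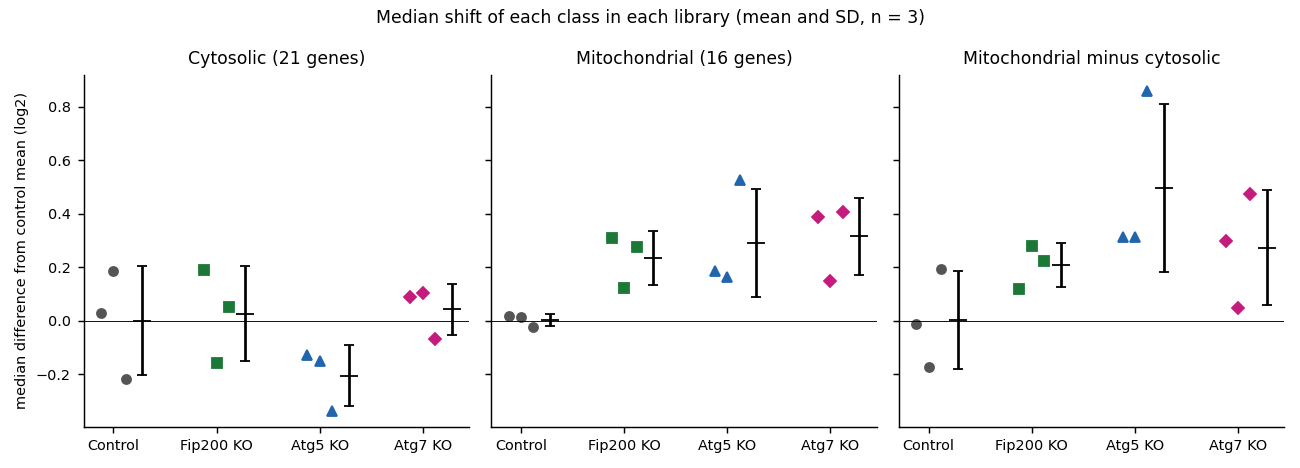
Median log2 difference from the mean of the control libraries over the 21 cytosolic genes, over the 16 mitochondrial genes, and the second minus the first, 1 point per library with mean and SD (n = 3) at the right of each group. The mitochondrial medians of all 9 KO libraries lie above those of the 3 control libraries, while the cytosolic medians overlap.

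Each gene was then tested by limma on log2(RPKM + 0.5), with p-values adjusted over all genes tested, and a gene passed at an adjusted p of at most 0.1. Fold changes are on that scale, which understates the change of genes with low RPKM. All 39 members were tested in every comparison. No member passed in Fip200 KO cells, where 0.356% of 11803 genes passed as higher and 1.69% as lower, or 0.347% and 1.64% with a change of 2-fold as well. At an unadjusted p under 0.05 there were 3 members, Dars, Yars2 and Lars2, and 1904 of all genes. The medians of the log2 fold changes were -0.08 over the cytosolic and 0.25 over the mitochondrial genes, against 0.02 over all genes. Of the mitochondrial genes 6 of 16 had all 3 Fip200 KO libraries above all control libraries (Yars2, Rars2, Aars2, Ears2, Iars2 and Vars2) and 2 had them below (Lars2 and Pars2), against 11.7% and 12.4% of all genes. Of the cytosolic genes 1 of 21, Dars, was above and 0 below.

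Dars, the aspartate enzyme of the multi-synthetase complex, had the smallest adjusted p of the cytosolic set in Fip200 KO cells. It was listed at 42.3, 43.8 and 40.8 RPKM in control cells, 63.2, 48.2 and 75.8 without Fip200, 54, 54 and 46.8 without Atg5 and 57.8, 65.2 and 53.2 without Atg7. All KO values lay above all control values, and the log2 fold change was 0.53 ± 0.21 (SE; adjusted p = 0.282) in Fip200 KO. Yars2, the mitochondrial tyrosine enzyme, had the smallest adjusted p of the mitochondrial set, with a log2 fold change of 0.75 ± 0.23 (SE; adjusted p = 0.193). At the other end, Lars stood at 52.2, 66 and 46.6 RPKM in control cells, 71.7, 48.6 and 44.3 without Fip200, 47.8, 43.5 and 51.5 without Atg5 and 76.2, 58.9 and 55.6 without Atg7, with a change of -0.02 (adjusted p = 0.977) in Fip200 KO. Tars2, the mitochondrial threonine enzyme, stood at 11.2, 12 and 9.16 RPKM in control cells, 12.6, 6.37 and 12.6 without Fip200, 14.7, 14.1 and 15.6 without Atg5 and 14.1, 10.2 and 6.59 without Atg7. Its Fip200 KO change was -0.09 (adjusted p = 0.908), and 1 of the 3 Fip200 KO libraries was well below the rest. Without Fip200 KO replicate 3, Farsa, a subunit of the phenylalanine enzyme, passed as lower with a log2 fold change of -0.94 (adjusted p = 0.0625). In 1 fit of all 12 libraries, Yars2 passed as higher without Fip200 (adjusted p = 0.0434).

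In Atg5 KO cells more mitochondrial enzymes rose than fell. Of 16 mitochondrial genes 7 passed as higher and 1 as lower, that is 43.8% and 6.25%, where 22.9% of 11833 genes passed as higher and 18.7% as lower. Of 21 cytosolic genes 3 passed as higher and 5 as lower, that is 14.3% and 23.8%, which is near the share of all genes. No member passed with a change of 2-fold in Atg5 KO, where 4.31% of all genes did as higher and 6.94% as lower. The medians of the log2 fold changes were 0.29 over the mitochondrial and -0.20 over the cytosolic genes, against 0.06 over all genes. All 3 KO libraries lay above control in 9 of 16 mitochondrial and 3 of 21 cytosolic genes (28.4% of all genes) and below control in 1 and 5 (22.0% of all genes).

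The largest mitochondrial change in Atg5 KO cells was that of Sars2, which charges mitochondrial serine tRNAs, at 4.39, 4.47 and 4.11 RPKM in control cells, 4.31, 6.48 and 8.3 without Fip200, 8.87, 8.03 and 7.75 without Atg5 and 8.46, 6.63 and 6.77 without Atg7. Its Atg5 KO values lay well above control, with a log2 fold change of 0.85 ± 0.12 (SE; adjusted p = 0.00657). Yars2 stood at 10.5, 8.82 and 9.9 RPKM in control cells, 14.4, 14.7 and 21.9 without Fip200, 18.3, 17.4 and 17.5 without Atg5 and 23.1, 18.2 and 19.3 without Atg7. All 9 KO libraries were above the 3 control libraries for this gene, and its change in Atg5 KO was 0.84 ± 0.11 (SE; adjusted p = 0.0059). Aars2, the alanine enzyme, rose by 0.72 (adjusted p = 0.0243), Mars2, the methionine enzyme, by 0.61 (adjusted p = 0.0301) and Rars2, the arginine enzyme, by 0.60 (adjusted p = 0.0199) on the log2 scale. Cars2, the cysteine enzyme, rose by 0.52 (adjusted p = 0.0592) and Tars2 by 0.45 (adjusted p = 0.0479). Fars2, the mitochondrial phenylalanine enzyme, moved the other way, at 11.7, 15 and 11.3 RPKM in control cells, 14.8, 6.81 and 7.36 without Fip200, 8.0, 7.89 and 7.93 without Atg5 and 6.93, 8.47 and 8.71 without Atg7. It passed as lower, with a log2 fold change of -0.63 ± 0.14 (SE; adjusted p = 0.0196). The largest adjusted p was that of Pars2, at a change of -0.07 (adjusted p = 0.77). The mitochondrial enzymes for histidine, asparagine, glutamate, valine and isoleucine had log2 fold changes between 0.19 for Iars2 and 0.31 for Hars2 and did not pass, nor did Lars2 at -0.43 (adjusted p = 0.132).

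Among cytosolic enzymes the smallest adjusted p in Atg5 KO cells was that of Farsa, at 42.1, 43.6 and 45 RPKM in control cells, 19.7, 25.6 and 48.6 without Fip200, 30.9, 28.1 and 28.9 without Atg5 and 30.0, 50.7 and 28.5 without Atg7. Its Atg5 KO values all lay below control, with a log2 fold change of -0.56 ± 0.10 (SE; adjusted p = 0.00939). Farsb, the other subunit of the same enzyme, fell as well, with a log2 fold change of -0.50 (adjusted p = 0.0575). Sars, the cytosolic serine enzyme, was listed at 157, 175 and 132 RPKM in control cells, 156, 108 and 62.9 without Fip200, 97.3, 106 and 84.2 without Atg5 and 103, 61.5 and 94.7 without Atg7. It passed as lower in Atg5 KO, with a log2 fold change of -0.68 ± 0.14 (SE; adjusted p = 0.0169). Nars, the asparagine enzyme, and Wars, the tryptophan enzyme, passed as lower at -0.55 (adjusted p = 0.0209) and -0.67 (adjusted p = 0.0521). Vars, the valine enzyme, moved up, at 39.1, 45.5 and 28.3 RPKM in control cells, 39.7, 41 and 78 without Fip200, 56.6, 54.7 and 73.1 without Atg5 and 95, 53.4 and 62 without Atg7. Its Atg5 KO change was 0.71 ± 0.20 (SE; adjusted p = 0.0384), and Dars and Kars, which charge aspartate and lysine, passed as higher at 0.28 (adjusted p = 0.0812) and 0.39 (adjusted p = 0.0834). Hars, the histidine enzyme, had the largest adjusted p, at 39.1, 57.4 and 50.8 RPKM in control cells, 55.4, 41.2 and 55 without Fip200, 45.5, 44.7 and 55.4 without Atg5 and 52.4, 70.0 and 55.8 without Atg7 and a change of -0.00 (adjusted p = 0.987). The other 12 cytosolic genes had log2 fold changes between -0.44 for Aars and 0.09 for Rars. Scaling by the median of ratios left 1 cytosolic gene higher, Vars, and 6 lower, since Kars and Dars no longer passed and Iars did, and voom on the recovered reads gave the same counts. With all 12 libraries in 1 fit no cytosolic gene passed and 3 mitochondrial genes did, Yars2, Sars2 and Aars2, and with the library-name prefix in that fit 1 did, Yars2 (adjusted p = 0.0902).

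Enzymes of the multi-synthetase complex were counted apart from the rest of the cytosolic set. Of the 8 enzymes of the complex 2 passed as higher in Atg5 KO, Dars and Kars, and 0 as lower, while of the 13 other cytosolic genes 1 passed as higher and 5 as lower. The median log2 fold changes were -0.05 and -0.38, against 0.06 over all genes, and the difference between these sets was not tested. Of all genes 22.9% passed as higher, near the 2 of 8, and 18.7% as lower, and Dars and Kars are the calls that median-of-ratios scaling lost. The related genes split, since Aarsd1 passed as higher at 0.41 (adjusted p = 0.0384) and Prorsd1 as lower at -0.67 (adjusted p = 0.026). The Aarsd1 call was lost without Atg5 KO replicate 2 (adjusted p = 0.112) and in the fit of all 12 libraries (adjusted p = 0.414), and both calls were lost with the library-name prefix in that fit.

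**Figure D4:**
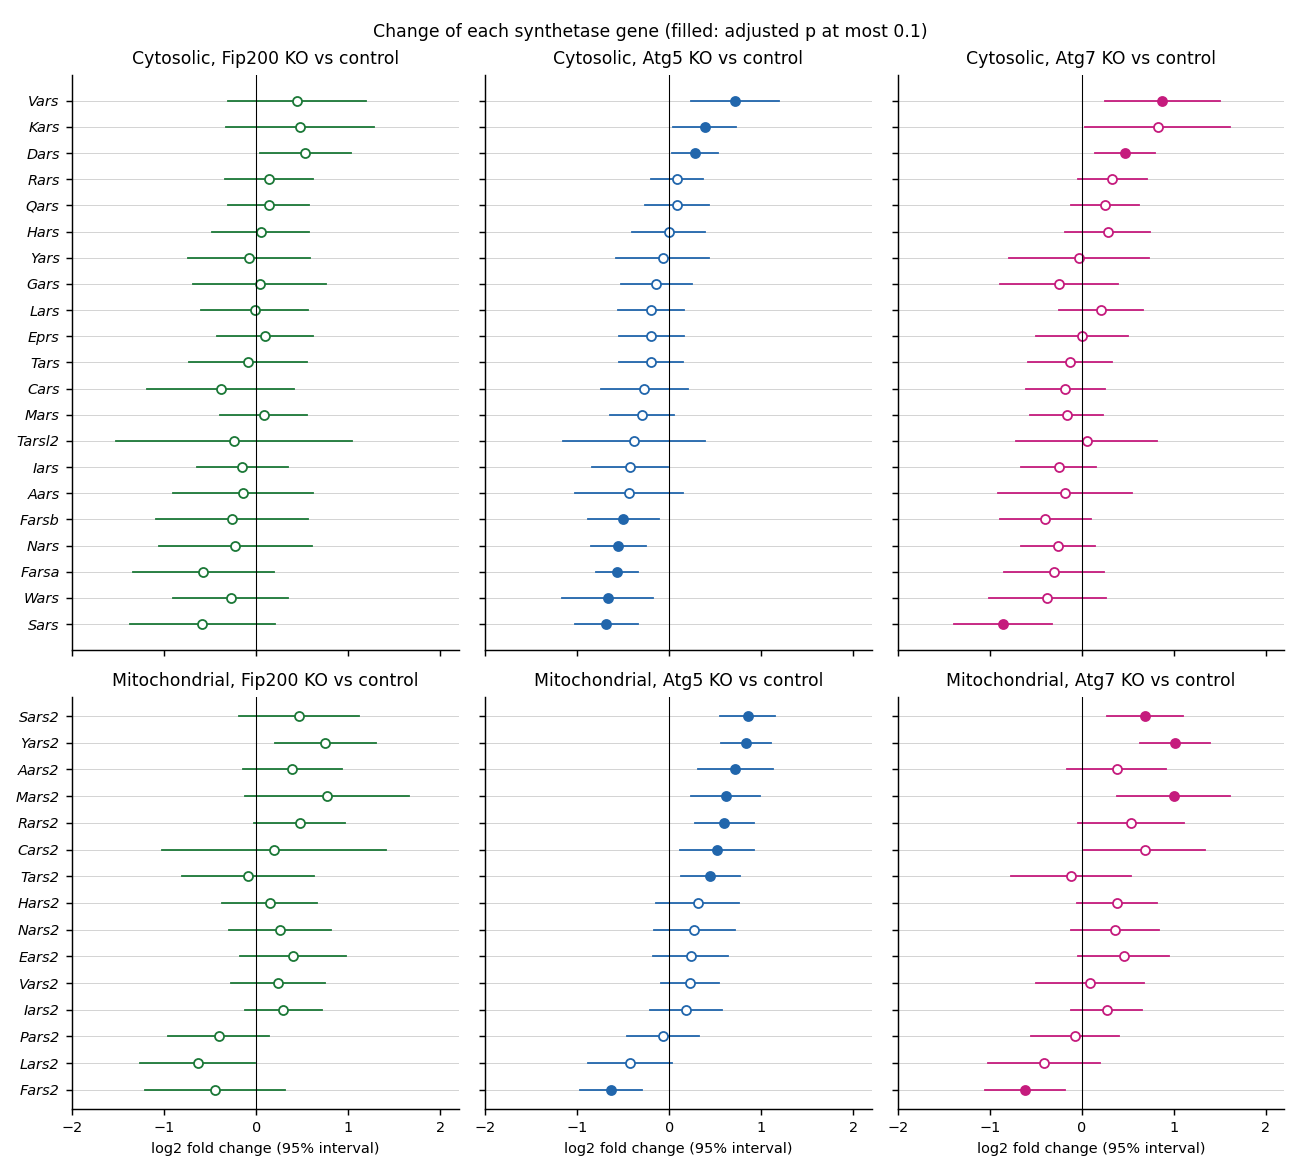
Log2 fold change on the log2(RPKM + 0.5) scale with its 95% interval for the 21 cytosolic (top) and 15 of the 16 mitochondrial (bottom) genes, 1 column per KO against control, in the order of the Atg5 KO change. Filled points passed at an adjusted p of at most 0.1, which 0 of the plotted genes did without Fip200, 16 without Atg5 and 7 without Atg7.

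In the fits of 6 libraries fewer members passed in Atg7 KO than in Atg5 KO cells, whose replicates 1 and 2 were the most alike of all replicate pairs. In 1 fit of all 12 libraries 0 cytosolic and 3 mitochondrial genes passed in Atg5 KO. The same fit gave 2 higher and 1 lower cytosolic and 3 higher mitochondrial genes in Atg7 KO. With 6 libraries, 3 of 16 mitochondrial genes passed as higher in Atg7 KO, Yars2, Sars2 and Mars2, and 1 as lower, Fars2, while 11.3% of 11784 genes passed as higher and 13.7% as lower. Of 21 cytosolic genes 2 passed as higher, Dars and Vars, and 1 as lower, Sars. The shares were 18.8% and 6.25% for the mitochondrial and 9.52% and 4.76% for the cytosolic genes. With a change of 2-fold as well, 3.29% of all genes passed as higher and 6.81% as lower, and Yars2 was the 1 member among them. It lay at the cut with a log2 fold change of 1.01, and Mars2 lay just under it at 0.996. Under the other settings they ran from 0.91 to 1.09 and from 0.72 to 1.22. Medians were 0.37 over the mitochondrial and -0.13 over the cytosolic genes, against -0.01 over all genes. With the library-name prefix in a fit of all 12 libraries the medians were 0.043 over the mitochondrial and 0.053 over the cytosolic genes. For Atg7 KO that adjustment rests on Atg5 KO replicate 3 alone. All 3 KO libraries lay above control in 7 of 16 mitochondrial and 4 of 21 cytosolic genes (19.2% of all genes) and below control in 1 and 1 (20.4% of all genes).

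Yars2 rose from 9.74 ± 0.85 RPKM in control to 20.2 ± 2.57 in Atg7 KO cells (SD, n = 3 each), with a log2 fold change of 1.01 ± 0.16 (SE; adjusted p = 0.0163). Mars2 was listed at 1.77, 2.38 and 2.18 RPKM in control cells, 3.69, 2.28 and 6.91 without Fip200, 3.32, 3.3 and 3.82 without Atg5 and 4.74, 6.45 and 3.32 without Atg7. All Atg7 KO values exceeded control, with a change of 1.00 ± 0.26 (SE; adjusted p = 0.0476), and the highest values were those of Fip200 KO replicate 3 and Atg7 KO replicate 2. Sars2 rose by 0.68 (adjusted p = 0.0451) and Fars2 fell, at a log2 fold change of -0.62 (adjusted p = 0.0646). Among cytosolic genes Sars had the smallest adjusted p, at -0.86 ± 0.23 (SE; adjusted p = 0.049), and Vars and Dars rose by 0.87 (adjusted p = 0.0689) and 0.47 (adjusted p = 0.0654). Kars stood at 70.4, 59.3 and 51.8 RPKM in control cells, 69.8, 58.5 and 143 without Fip200, 88, 74.7 and 73.7 without Atg5 and 84.6, 186 and 77.3 without Atg7. All Atg7 KO values of Kars lay above control but the change of 0.82 ± 0.34 (SE; adjusted p = 0.134) did not pass, and again Fip200 KO replicate 3 and Atg7 KO replicate 2 were far above all others. Eprs, the joint glutamate and proline enzyme, had the largest adjusted p of the cytosolic set, at 80.1, 90.3 and 62.3 RPKM in control cells, 94.4, 68.1 and 84.7 without Fip200, 68.6, 65.8 and 66.5 without Atg5 and 96.5, 63.5 and 73.8 without Atg7. Its change in Atg7 KO was 0.00 (adjusted p = 0.996). Vars2, the mitochondrial valine enzyme, closed the mitochondrial ranking, at 5.35, 5.43 and 5.5 RPKM in control cells, 7.65, 6.29 and 5.62 without Fip200, 5.92, 6.18 and 7.33 without Atg5 and 7.32, 3.88 and 6.85 without Atg7 and a change of 0.09 (adjusted p = 0.824). The remaining mitochondrial genes lay between -0.42 for Lars2 and 0.68 for Cars2 and the remaining cytosolic genes between -0.40 for Farsb and 0.33 for Rars. Without Atg7 KO replicate 2, 5 mitochondrial genes passed as higher and 2 as lower, while 2 cytosolic genes passed each way. Without control replicate 1, 2 or 3 no cytosolic gene passed and 2, 1 and 1 mitochondrial genes did, and with the prefix of the library name in the fit no synthetase of either set passed in Atg7 KO.

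The KO cells were also compared with each other in 1 fit of 12 libraries. No member passed in any of the 3 comparisons, nor did any other gene by limma, as 0.0% of 12233 genes passed each time. At an unadjusted p under 0.05 there was 1 member between Atg5 KO and Fip200 KO (Mars, with a log2 difference of -0.38 (95% interval -0.73 to -0.03)), and 0 in the other comparisons, where 927, 916 and 562 of all genes stood at that level for Atg5 against Fip200, Atg7 against Fip200 and Atg7 against Atg5. For Yars2 the log2 difference was 0.09 (95% interval -0.31 to 0.48) between Atg5 KO and Fip200 KO and 0.26 (95% interval -0.14 to 0.66) between Atg7 KO and Fip200 KO, and for Sars2 it was 0.39 (95% interval -0.09 to 0.86) and 0.22 (95% interval -0.26 to 0.69). The Yars2 intervals include 0 but end below its change against control in Atg5 KO and in Atg7 KO, while those of Sars2 include 0 and reach its change against control. For Tars2 the Atg5 KO libraries lay above all libraries of both other KO groups, with log2 differences of 0.53 (95% interval -0.11 to 1.18) from Fip200 KO and -0.57 (95% interval -1.21 to 0.08) for Atg7 KO minus Atg5 KO.

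The pair of enzymes that charge the same amino acid in the cytosol and in mitochondria was compared within each library, for 16 pairs. Eprs was used for both glutamate and proline, and Farsa for phenylalanine. In control cells the cytosolic enzyme was the more abundant in 15 of 16 pairs, with a median ratio of 18.8, the lowest for leucine at 0.0837 and the highest for glutamate at 124. Against control the ratio was lower for 11 pairs without Fip200, 12 without Atg5 and 10 without Atg7, with median log2 changes of -0.40, -0.61 and -0.38. All KO libraries lay below all control libraries in 2, 9 and 7 pairs in the same order, and above them in 1 pair in each KO. The leucine pair rests on Lars2, whose values moved with Rn45s. Without it all 15 pairs had more of the cytosolic enzyme in control cells, with a median ratio of 21.5 and the lowest for phenylalanine at 3.50, and the median log2 changes were -0.45, -0.62 and -0.53. These counts have no test, and the 6 pairs shown in the plot of ratios were chosen after their values were seen.

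For serine the ratio of Sars to Sars2 was 35.7, 39.1 and 32.2 in control cells, 36.1, 16.7 and 7.57 without Fip200, 11, 13.3 and 10.9 without Atg5 and 12.2, 9.28 and 14 without Atg7. The Atg5 KO and Atg7 KO libraries and Fip200 KO replicates 2 and 3 lay far below control, while Fip200 KO replicate 1 stood within it. For methionine the ratio of Mars to Mars2 was 35, 23.6 and 20.5 in control cells, 17.3, 22.7 and 8.09 without Fip200, 14.3, 13 and 10.7 without Atg5 and 9.78, 8.23 and 13.6 without Atg7. Atg5 KO and Atg7 KO libraries were below control and Fip200 KO overlapped it. For tyrosine, Yars to Yars2, it was 3.44, 6.44 and 3.19 in control cells, 3.38, 2.37 and 1.47 without Fip200, 2.0, 2.25 and 2.21 without Atg5 and 2.5, 1.49 and 2.01 without Atg7, again with Atg5 KO and Atg7 KO below control. For glutamate, Eprs to Ears2, it was 118, 137 and 116 in control cells, 83.1, 83.6 and 83.6 without Fip200, 86.5, 87.6 and 71.6 without Atg5 and 84.3, 54.4 and 89.4 without Atg7, and all 9 KO libraries were below the 3 control libraries. Ears2 works in mitochondria on glutamate and also, with an amidotransferase, on the way to glutamine. Its RPKM was 0.679, 0.661 and 0.535 in control and at most 1.17 in any library. For alanine, Aars to Aars2, the ratio was 28.8, 33.4 and 22.8 in control cells, 24, 18.3 and 15.2 without Fip200, 16, 13.7 and 7.9 without Atg5 and 12.2, 37.9 and 13.8 without Atg7, with Atg7 KO replicate 2 above every control library. Of the pairs not plotted, proline (Eprs to Pars2) had all 3 Fip200 KO libraries above control, with a log2 change of 0.77. Among the plotted pairs valine moved the other way. The ratio of Vars to Vars2 was 7.32, 8.37 and 5.14 in control cells, 5.19, 6.53 and 13.9 without Fip200, 9.55, 8.86 and 9.97 without Atg5 and 13, 13.8 and 9.06 without Atg7, with the Atg5 KO and Atg7 KO libraries above control.

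**Figure D5:**
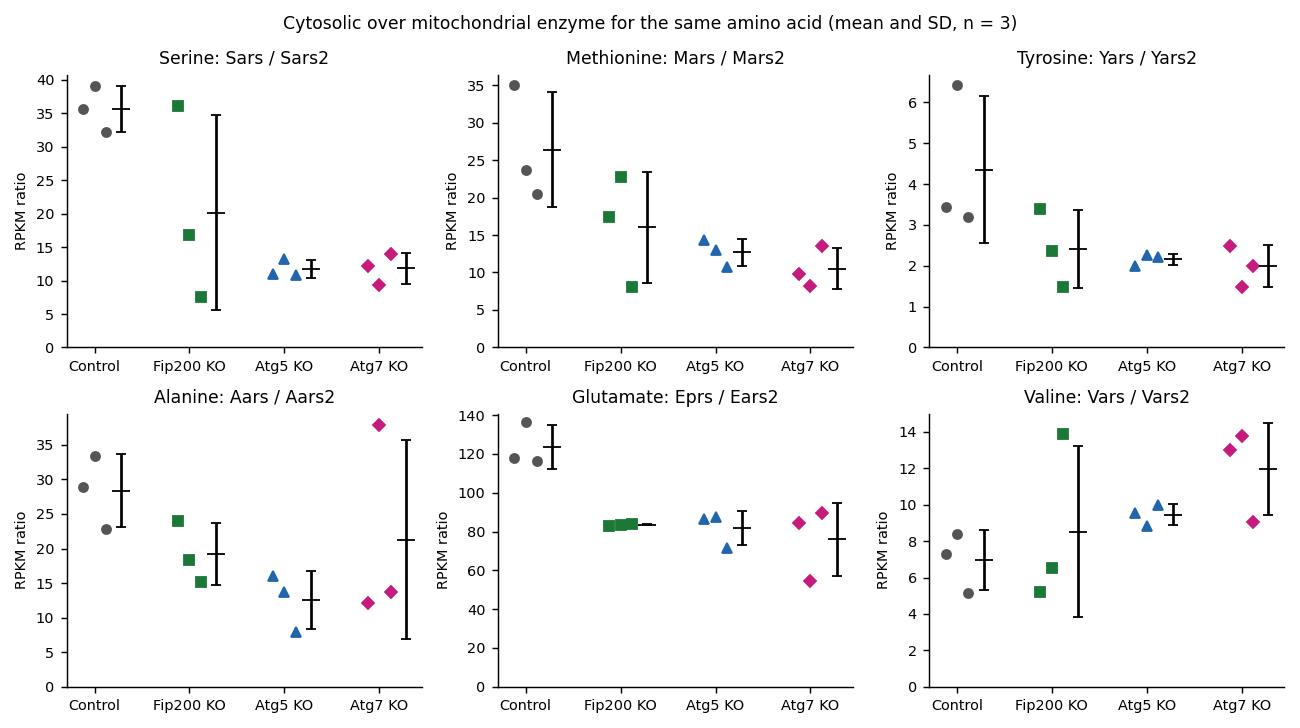
Ratio of the RPKM of the cytosolic to the mitochondrial enzyme for the same amino acid in each library, 1 point per library with mean and SD (n = 3) at the right of each group, all axes from 0. For serine the mean ratio is 35.6 in control cells, 20.2 without Fip200, 11.7 without Atg5 and 11.8 without Atg7, and for valine the Atg5 KO and Atg7 KO libraries lie above control.

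The enzymes with TGATGNAA at their start were Aars, Gars, Iars, Tars and Yars, and none of them passed in any KO, while in Atg5 KO other settings called 2 of them lower. Iars passed with median-of-ratios scaling (adjusted p = 0.0759), voom (0.0873), the replicate number as a block (0.0620) and without control replicate 3 (0.0904), and Aars with that block (0.0620) and without control replicate 3 (0.0662). Their log2 fold changes in Atg5 KO were -0.44, -0.14, -0.43, -0.20 and -0.07, and in Atg7 KO -0.19, -0.25, -0.25, -0.13 and -0.04, and each of the Atg7 KO values was above 0 under at least 1 other setting, up to 0.46 for Aars with the library-name prefix, as were the Atg5 KO values of Gars and Yars. In Fip200 KO they were -0.15, 0.03, -0.15, -0.09 and -0.08, and the sign turned under another setting for each but Iars. Aars, the alanine enzyme, was listed at 140.3, 144 and 84.9 RPKM in control cells, 149, 114 and 74.9 without Fip200, 99, 101 and 69.1 without Atg5 and 82.8, 158 and 88.8 without Atg7. Its control and KO ranges overlapped in every comparison. Of 15 other genes of the ATF4 amino acid response 5 passed as lower and 0 as higher in Atg5 KO, 1 as lower and 0 as higher in Atg7 KO, and 0 in Fip200 KO. Chac1 and Ddit3, among these 5, passed in Atg5 KO at adjusted p = 0.068 and 0.0995. Their control values were 41.8, 163 and 70.0 RPKM and 42.7, 216 and 36.0 RPKM, so control replicate 2 stood far above the others. Over all genes the lower calls were 18.7% without Atg5 and 13.7% without Atg7, so 1 of 15 in Atg7 KO is under the share of all genes. In Fip200 KO 1 stood at an unadjusted p under 0.05, Shmt2, a mitochondrial enzyme of serine and glycine exchange, with a log2 fold change above 0 that did not pass, 0.86 (adjusted p = 0.186). Log2 fold changes were above 0 for 3 of the 15 genes in each KO, with Shmt2 and Psat1, an enzyme of serine synthesis named after its values were seen, among them each time. The median changes were -0.47 without Atg5, -0.37 without Atg7 and -0.33 without Fip200, against 0.06, -0.01 and 0.02 over all genes. Slc7a11, the cystine transporter, was lowest in p in Atg5 KO and Atg7 KO, at 39.5, 51.1 and 47.6 RPKM in control cells, 59.6, 8.42 and 4.69 without Fip200, 19, 20.5 and 17.6 without Atg5 and 30.5, 11.9 and 15.2 without Atg7. It fell in Atg5 KO and Atg7 KO with log2 fold changes of -1.25 (adjusted p = 0.00372) and -1.35 (adjusted p = 0.0403). Slc7a5, the leucine transporter, and Phgdh, the first enzyme of serine synthesis, passed as lower in Atg5 KO at -1.28 (adjusted p = 0.0181) and -0.75 (adjusted p = 0.025). Atf4 itself changed by -0.03 (adjusted p = 0.893) in Atg5 KO.

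Partners of the synthetases were counted from lists of tRNA and translation genes. Aimp2, a scaffold of the multi-synthetase complex, stood at 22.6, 19.8 and 25.9 RPKM in control cells, 20.9, 30.4 and 51.1 without Fip200, 39, 40.6 and 35.5 without Atg5 and 38.7, 55.1 and 44 without Atg7. It was the 1 of 3 scaffold genes that passed, as higher in Atg5 KO at 0.74 (adjusted p = 0.00995) and in Atg7 KO at 0.99 (adjusted p = 0.0216), and 0 of 3 passed in Fip200 KO. The subunits of elongation factor 1, which carries the charged tRNA to the ribosome, passed as higher in 4 of 4 genes in Atg5 KO, 3 of 4 in Atg7 KO and 0 of 4 in Fip200 KO, where 22.9%, 11.3% and 0.356% of all genes did. Eef1d stood at 35.6, 35.1 and 33 RPKM in control cells, 42.8, 40.3 and 58.6 without Fip200, 56.9, 55.4 and 57.2 without Atg5 and 77.6, 61 and 57.4 without Atg7, with changes of 0.70 (adjusted p = 0.00538) and 0.90 (adjusted p = 0.0196) in Atg5 KO and Atg7 KO. Of 10 mitochondrial translation factors 5 passed as higher and 1 as lower in Atg5 KO, 1 and 1 in Atg7 KO and 0 in Fip200 KO, and the Atg7 KO counts are near the 11.3% and 13.7% of all genes. The recycling factor Mrrf rose by 0.55 (adjusted p = 0.0289) and 0.64 (adjusted p = 0.0574) and Gfm2, which acts beside it, fell at -0.83 (adjusted p = 0.00999) and -0.77 (adjusted p = 0.0365) in Atg5 KO and Atg7 KO. Of 10 genes of mitochondrial tRNA maturation 2 passed as higher and 1 as lower in Atg5 KO, 1 and 1 in Atg7 KO and 0 in Fip200 KO, near the shares of all genes. The 1 lower gene was Hsd17b10, a subunit of mitochondrial RNase P, at 97.5, 89.3 and 86.7 RPKM in control cells, 82.1, 33.9 and 34.1 without Fip200, 37.1, 44.1 and 50.6 without Atg5 and 45.3, 48.6 and 49.3 without Atg7. Its log2 fold changes were -1.05 (adjusted p = 0.00513) in Atg5 KO and -0.93 (adjusted p = 0.0116) in Atg7 KO, and Fip200 KO replicate 1 alone stayed near control. Of 10 measured genes of nuclear tRNA maturation and export 3 passed as higher and 1 as lower in Atg5 KO, 2 and 0 in Atg7 KO and 0 in Fip200 KO, where the shares of all genes were 22.9% and 18.7% without Atg5, then 11.3% and 13.7% without Atg7. Pop1, a subunit of nuclear RNase P, rose by 1.30 (adjusted p = 0.013) and 1.29 (adjusted p = 0.0453). Of 3 genes of the glutamyl-tRNA amidotransferase, Qrsl1 passed as higher in Atg5 KO at 0.48 (adjusted p = 0.0465), and 0 passed in the other KO cells.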

How the data were processed

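The files hold a table for each KO with its control. The authors deposited RPKM per library, group means as a signal (normalised reads), and fold changes and p-values of their own, which were not used. Per the study's methods, reads were aligned with TopHat2, counted with Bioconductor packages. Genome build, annotation and strand setting of the counting are not given in the sources used here, so reads of overlapping genes and paralogs may be shared. The deposited RPKM values were whole multiples of 1 read for 14851 of 14851 genes (tolerance 0.01 reads, using the authors' group means), and 20 genes had none. The count of per-sample columns left out was 0.

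A gene entered a fit when 3 or more of its libraries reached 0.5 RPKM. Fits used limma 3.58.1 (R 4.3.3) on log2(RPKM + 0.5) with a trend, in 6 libraries per KO against control and in 12 between KO cells, with Benjamini-Hochberg adjustment over all tested genes. Members and lists were chosen with earlier results of these data known. Values in every library are given for members with a 2-fold call, with the smallest or largest adjusted p per KO and set, or with the highest or lowest mean; Sars2, Vars, Kars, Mars2, Fars2, Aars and the gene Rn45s were added after their values were seen. From other lists at most 3 genes per KO are named, by smallest adjusted p, apart from Atf4, Psat1, Chac1 and Ddit3. The test was also run on simulated data, and the outcome is not reported here. Alternatives were other filters (none, RPKM of at least 1), pseudocounts (0.1 and 1), median-of-ratios scaling, 12-library fits with and without the library-name prefix, a replicate block, leaving out each library, and, chosen after seeing the data, voom on the recovered reads. Promoters came from RefSeq (GRCm38.p6). Values of 1 mitochondrial member, which stays in the counts, sums and medians, and 1 further list and 1 start sequence are not reported here. Python 3.11.15, numpy 2.4.6, pandas 2.3.3 and matplotlib 3.10.9 were used.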

Additional observations from a re-analysis of the deposited data

How the results depend on the processing

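Of the values recomputed for the sets, 189 stayed within 1.5 times the count of genes passed in either direction, or within 1 SD between KO libraries for a median, and 30 moved. None of the 30 came from the filter, the pseudocount, the scaling or voom, although scaling and voom changed the split by direction in Atg5 KO, to 1 higher and 6 lower cytosolic genes, and scaling gave 2 lower mitochondrial genes. Leaving out 1 library at a time, the cytosolic genes past the test numbered 0 to 1 without Fip200, 4 to 10 without Atg5 and 0 to 4 without Atg7, and the mitochondrial genes 0 to 0, 6 to 7 and 1 to 7. The cytosolic medians ran from -0.24 to 0.12, -0.31 to -0.076 and -0.21 to 0.013, with control replicate 2 (all KO), Fip200 KO replicate 2 and Atg7 KO replicate 2 moving them most, and the mitochondrial medians from 0.24 to 0.32, 0.17 to 0.37 and 0.28 to 0.39. In 1 fit of all 12 libraries 1 mitochondrial gene passed in Fip200 KO, 3 in Atg5 KO, and 0 cytosolic genes in Atg5 KO. With the library-name prefix added, 0 cytosolic and 1 mitochondrial gene passed without Atg5 and 0 of both without Atg7, and the Atg7 KO medians were 0.053 (cytosolic) and 0.043 (mitochondrial). Lars in Fip200 KO (0.039) and Vars2 in Atg7 KO (-0.18), neither past the test, changed sign there, as did 12 of 39 members in Atg7 KO, 5 in Fip200 KO and 2 in Atg5 KO in all, 0 of them past the test. Leaving out 1 library gave -0.23 to 0.12 for Lars and -0.24 to 0.22 for Tars2 in Fip200 KO, -0.16 to 0.12 for Hars in Atg5 KO, and -0.16 to 0.14 for Eprs and -0.064 to 0.35 for Vars2 in Atg7 KO. The causes were not tested. No member passed between KO cells under any setting run.

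Replicate numbers did not pair the libraries, as same-numbered control and KO libraries correlated between -0.22 and 0.08. With the replicate number as a block, 0 cytosolic and 2 mitochondrial genes passed in Atg7 KO.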
